A study of Mus musculus with 4 samples.

Results

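N6-methyladenosine (m6A) peaks annotated to 5′ untranslated regions (5′ UTRs) were taken from the peak lists of Mettl3 knockout (KO) and wild-type (WT) mouse macrophages. Every listed peak whose annotation reads 5′ UTR is a member. They numbered 2160 of 21031 peaks in the KO list, 2166 of 16709 peaks in the WT list, and 600 of 6050 rows in the authors' deposited table of differences in enrichment.

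The macrophages were grown from bone marrow of C57BL/6 mice for 7 days with macrophage colony-stimulating factor (M-CSF). KO cells carried floxed Mettl3 alleles (Mettl3 fl/fl) together with a Cre recombinase that the labels call LysM-cre or LyzM-cre. This Cre is driven by the gene for lysozyme 2, which is active in myeloid cells. WT cells carried the same floxed Mettl3 alleles and no Cre. In m6A-seq, an anti-m6A antibody pulls down pieces of poly(A) RNA for the IP library, and the input library is made from such RNA without the pull-down. There were 4 libraries, 1 IP and 1 input for KO and the same for WT, and the labels do not say how many mice stand behind each. No difference between KO and WT therefore has a replicate check.

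m6A is deposited on messenger RNA by a complex in which METTL3 is the catalytic subunit and METTL14 its partner, mostly at adenosines in DRACH-type contexts such as GGAC, and most of it lies near stop codons and in 3′ UTRs. The mark in 5′ UTRs has been linked in other work to translation that does not need the cap, for example of heat shock transcripts under stress. Antibodies against m6A also bind m6Am, the related mark on an adenosine next to the cap, which PCIF1 writes and METTL3 does not, so antibody-based peaks at transcript starts do not tell the 2 marks apart.

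Of 10 macrophage markers, 6 had an input level listed, from 58.4 to 6615 FPKM (fragments scaled to the length of the transcript and the size of the library) in KO cells and from 40.6 to 10533 FPKM in WT cells. Lyz2, the lysozyme 2 gene that drives the Cre, was among the 6, and the effect of the Cre on its level was not tested. Of 8 neutrophil markers, S100a8 and S100a9 were listed, at 46.4 to 90.2 FPKM in KO cells and 77.7 to 155 FPKM in WT cells. Of 4 B cell markers, Cd79b was listed, at 0.73 FPKM in KO cells and 1.12 FPKM in WT cells. No level was listed for the markers of T and NK cells, dendritic cells, mast cells and basophils, erythroid cells or stroma. Dendritic cell markers (2 in KO, 2 in WT) and stromal markers (3 in KO, 2 in WT) did have peaks, so a missing level is not an absence of their RNA. Levels are given only for genes with a differential peak, and the level of Mettl3 itself was not analysed here, so the deletion was not checked on its transcript. How deeply each library was sequenced is unknown here. The part of other cell types in the results below was not tested.

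The start of the transcript lay inside most of these peaks, and the following stretches come from RefSeq starts (build GRCm38.p6) that lie inside a 5′ UTR peak of the gene. They show where the m6A core GGAC stands, in capitals, in the 50 transcribed bases from the start, for genes with some of the highest enrichments (Capns1, Emp3, Senp3, Phf23) and for genes with a differential peak in either direction (Pphln1, Tfeb, Ranbp6, Msi2), all read 5′ to 3′ on the strand of the gene.
Capns1, chr7:30195127-30195150, minus strand: ggaggctctaGGACcgcgcagacg
Emp3, chr7:45920821-45920844, minus strand: ggtcgggtgaGGACcagagactca
Senp3, chr11:69682070-69682084, minus strand: gGGACtgccacacgc
Phf23, chr11:69996941-69996963, plus strand: ggggcggagGGACagcgaaattg
Pphln1, chr15:93398361-93398384, plus strand: tagggcgagcGGACgtctggcttc
Tfeb, chr17:47785756-47785779, plus strand: agtcactgaaGGACagtgttcacc
Ranbp6, chr19:29812944-29812967, minus strand: agctttgacaGGACgcgatggcgg
Msi2, chr11:88718180-88718195, minus strand: gggggaggagGGACgg
The core begins at base 2 of the transcript in Senp3, base 10 in Phf23, base 14 in Capns1, base 16 in Emp3 and base 45 in Msi2, counted from 1 at the start. The stretches of Tfeb and Pphln1 lie outside the differential 5′ UTR peak of their gene. The differential peak of Ranbp6 holds only the last base of the core. The sequence of the peaks themselves was not read, as no genome of the build was used here.

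GGAC stood at these starts about as often as at other starts. On the transcribed strand, 171 of 825 RefSeq starts inside a KO 5′ UTR peak (20.7%, 95% interval 18.0 to 23.7) and 176 of 860 starts inside a WT 5′ UTR peak (20.5%, 17.8 to 23.3) held it in the first 50 bases. Among starts of genes that had a peak elsewhere and none in the 5′ UTR, the share was 20.3% in both lists, and among all 21230 starts of protein-coding genes GGAC stood at 4239 (19.4 to 20.5%). On the opposite strand GGAC stood at 16.5% of starts in KO peaks, 18.8% in WT peaks and 18.7% of all coding starts. The longer GGACT was found on the transcribed strand at 4.85% of starts in KO peaks, 4.88% in WT peaks and 5.86% of all coding starts. A match of letters in this window is a description and not a methylated site.

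The first base of the transcript is the one that can carry m6Am when it is an adenosine, and 4 starts from the highest KO enrichments are printed with it in capitals.
Gtpbp2, chr17:46161032-46161051, plus strand: Agtgggccacaccccgctct
Synj2, chr17:5975586-5975605, plus strand: Agagagccagcgttctgtgg
Terf2, chr8:107096526-107096545, minus strand: Agaagcccgcgggcggctcg
Ubp1, chr9:113931148-113931167, plus strand: Ggaagcggcgagcgagccca
Over all starts inside the peaks, A was the first annotated base at 26.7% in KO (23.7 to 29.8) and 26.6% in WT (23.7 to 29.7). It was the first base at 29.6% and 29.4% of the starts of genes with peaks elsewhere only, in KO and WT, and at 37.4% of all coding starts. G was the first base at 52.0% of the starts inside KO peaks, 51.0% of those inside WT peaks and 39.3% of all coding starts. The share with A varied between 23.6% and 32.2% over 5 classes of enrichment in KO and between 24.0% and 32.4% in WT, without order from the weakest class to the strongest. RefSeq starts need not be the base at which the transcripts in these cells begin.

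5′ UTR peaks were a minority of each list. They made up 10.3% of KO peaks (9.86 to 10.7) and 13.0% of WT peaks (12.5 to 13.5), while 3′ UTR peaks made up 64.1% of KO peaks and 59.6% of WT peaks and other exonic peaks the rest. The KO list held 13477 3′ UTR peaks against 9961 in the WT list, whereas the numbers of 5′ UTR peaks were nearly equal. The intervals on shares are exact binomial ones (Clopper-Pearson, 95%), which cover counting error alone and treat peaks as if they were independent.

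The peaks fell in 1921 genes in KO and 1938 genes in WT, of which 1195 had one in both lists, 62.2% of the KO genes and 61.7% of the WT genes. Of 726 genes with a 5′ UTR peak in KO only, 485 (66.8%) had a peak of another annotation in WT. Of 743 genes with one in WT only, 552 (74.3%) had another kind of peak in KO. A single 5′ UTR peak was listed for 1706 of the KO genes and 1733 of the WT genes. The gene with the most was Rbm6, which encodes an RNA-binding protein of splicing, with 5 in KO and 4 in WT. Brd2 and Jmjd1c also had 4 in WT; Brd2 and Jmjd1c were named after their values were seen.

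A smaller share of the genes with a 5′ UTR peak carried a 3′ UTR peak than of the other genes with a peak. In KO 1218 of them (63.4%) also had a 3′ UTR peak, against 80.6% of genes whose peaks lay only elsewhere. In WT 1072 (55.3%) did, against 77.4%. For 515 genes in KO (26.8%) and 630 genes in WT (32.5%) every listed peak was in the 5′ UTR. A gene enters the comparison set only through a peak outside the 5′ UTR, so part of this gap is fixed by how the genes were counted.

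5′ UTR peaks lay mostly over or near annotated transcript starts. The annotated start of the assigned transcript lay inside an exonic block of 1591 KO peaks (73.7%, 71.7 to 75.5) and 1651 WT peaks (76.2%, 74.4 to 78.0), compared with 8.50% of KO and 12.8% of WT 3′ UTR peaks. Among other exonic peaks, the share was 22.6% in KO and 26.3% in WT. The upstream edge of the peak was exactly the first base of the transcript for 735 KO peaks (34.0%) and 850 WT peaks (39.2%). The edge lay upstream of the assigned start by 1 to 100 genomic bases for 14.9% of KO and 13.3% of WT peaks. It lay upstream by 101 to 1000 bases for 15.0% and 14.2%, and by more than 1000 bases for 14.5% and 15.1% (KO, WT). Such peaks begin before the start of the transcript to which they were assigned. Within 100 bases of the start lay 83.7% of KO peaks and 85.7% of WT peaks. A 5′ UTR begins at a start, so nearness to it is in part given by the annotation, and an edge at the first annotated base cannot be told apart from a peak clipped there.

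**Figure D1:**
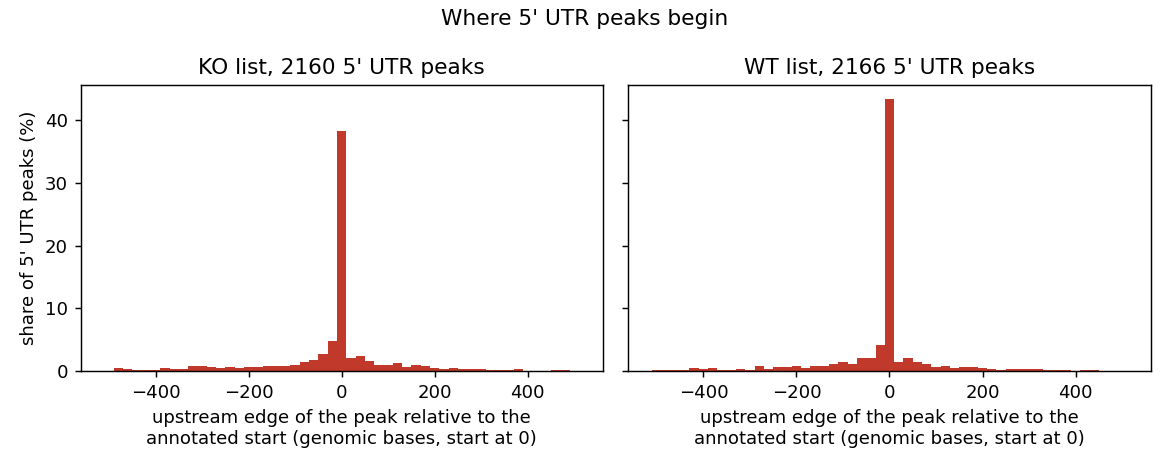
Share of 5′ UTR peaks (%) by the position of their upstream edge relative to the annotated start of the assigned transcript (genomic bases, bins of 20, window of 500 bases to either side), KO list on the left and WT list on the right. The highest bar in both panels is at the start, where 34.0% of KO peaks and 39.2% of WT peaks had their edge at the first base itself.

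A larger share of 5′ UTR peaks than of 3′ UTR peaks crossed introns, in both lists. Their median exonic length was 360 bases in KO (95% order-statistic interval 357 to 388) and 391 bases in WT (389 to 420). The 3′ UTR peaks had medians of 330 bases in KO and 421 bases in WT, so the order of the 2 classes differed between the lists. Only 43.7% of KO and 42.7% of WT 5′ UTR peaks lay in a single exonic block, compared with 72.4% of KO and 64.5% of WT 3′ UTR peaks. A genomic span over 10000 bases was found for 19.5% of KO and 22.5% of WT 5′ UTR peaks, and these cross introns. In total the 5′ UTR peaks covered 1330 kb of exon in KO and 1438 kb in WT, overlaps counted more than once.

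The longest peaks ran over several exons. In KO they were those of the neurexin gene Nrxn2 (10786 bases in 27 blocks), Apc2 (8887 bases in 15 blocks) and Mllt3, which encodes a chromatin reader (5628 bases). In WT they were those of the membrane protein gene Emp2 (5713 bases), the kinase gene Nim1k (5445 bases) and Usp10, a deubiquitinase (5244 bases). The Usp10 peak had a fold enrichment of 44.8 and a p of 1e-277, while the other 5 had p-values between 0.0015 and 0.02. A peak annotated to a 5′ UTR may thus reach well past a transcript's first exon.

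Fold enrichment, the authors' ratio of IP over input at a peak, was higher for 5′ UTR peaks than for 3′ UTR peaks within each list. The median was 3.78 in KO (3.54 to 4.10) against 2.95 for 3′ UTR peaks and 3.54 for other exonic peaks of that list. In WT it was 4.12 (4.08 to 4.42) against 3.57 and 3.74. A false discovery rate under 0.05 was reached by 63.6% of KO and 73.8% of WT 5′ UTR peaks, and by 70.6% of KO and 74.4% of WT 3′ UTR peaks.

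The highest enrichments belonged to genes of varied function. Kctd1, whose product represses transcription, had a fold of 381 in the KO list and 448 in the WT list. Capns1, the small subunit of the calpain proteases, had 138 in KO and 153 in WT. Kdm3b, a histone demethylase gene, had 142 in KO and 133 in WT. Gtpbp2, a GTPase gene of ribosome rescue, had 110 in KO and 109 in WT, and Gng2, a G protein subunit gene, had 112 in KO and 91.8 in WT. Folds from the 2 lists are each relative to their own libraries and are given side by side without a comparison.

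Other genes were named for overlapping KO and WT peaks whose lower fold ranked among the 10 highest. Synj2, a phosphoinositide phosphatase gene, had folds of 83.8 in KO and 69.4 in WT. Terf2, which encodes a telomere-binding protein, had 66.1 in KO and 71.4 in WT. The membrane protein gene Emp3 had 62.0 in KO and 90.7 in WT, the calcium channel gene Itpr1 had 89.7 in KO and 57.1 in WT, and the centrosomal gene Cep44 had 94.5 in KO and 63.3 in WT. Ubp1, a transcription factor gene, was among the 10 highest of the KO list with 63.8. Senp3, a SUMO protease gene, had 283 in the WT list, and the overlapping KO 5′ UTR peak had a fold of 53.3. Its 5′ UTR row in the authors' deposited table had a log2 ratio (KO to WT) of only −0.199. The Emp3 row had 0.209, the other way round from its folds, and the Cep44 row had 1.84, the same way as its folds. The folds alone thus do not give the size or direction of a difference. The WT list also had Phf23 at 101, Zfp768 at 100 and Tab2, an adaptor of the TAK1 kinase, at 79.6, and the KO peaks of Phf23 and Tab2 had 56.7 and 30.7.

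Most 5′ UTR peaks of either list overlapped a peak of the other. At least 1 exonic base was shared with a WT peak by 1572 KO peaks (72.8%, 70.8 to 74.6), and with a KO peak by 1524 WT peaks (70.4%, 68.4 to 72.3). For 61.9% of the KO and 60.5% of the WT peaks the partner was itself a 5′ UTR peak, and for 10.8% and 9.83%, in KO and WT, all partners had another annotation. No partner was found for 588 KO peaks (27.2%) and 642 WT peaks (29.6%). Among 3′ UTR peaks the overlap was 61.0% of the KO list and 80.5% of the WT list, so the KO list shared a higher share of its 5′ UTR peaks than of its 3′ UTR peaks and the WT list a lower one. Over all peaks the overlap was 61.6% of the KO list and 73.4% of the WT list. Among other exonic peaks it was 58.4% in KO and 59.3% in WT. With 50% of both peaks required, 49.0% of KO and 50.6% of WT 5′ UTR peaks overlapped, against 41.5% of all KO and 52.2% of all WT peaks.

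**Figure D2:**
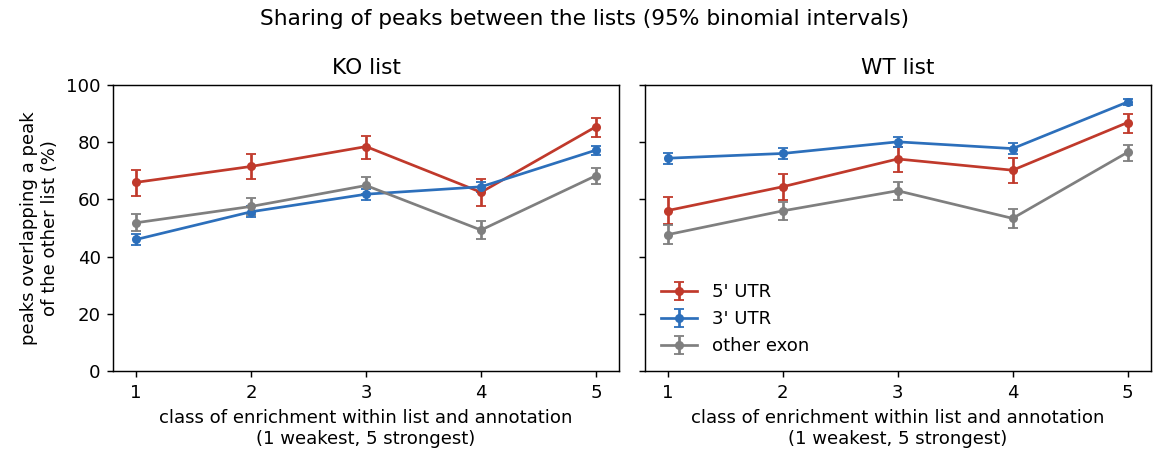
Share of peaks (%) that overlapped a peak of the other list by at least 1 exonic base, in 5 classes of equal size ordered by fold enrichment within list and annotation, KO list on the left and WT list on the right; bars are 95% binomial intervals. In the strongest class 85.4% of KO and 86.9% of WT 5′ UTR peaks were shared, and in class 4 the share was 62.5% in KO and 70.2% in WT.

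Sharing went with enrichment only in part. In KO 66.0% of the weakest class, 71.5% of class 2, 78.5% of class 3, 62.5% of class 4 and 85.4% of the strongest class were shared. In WT the shares were 56.1%, 64.4%, 74.1%, 70.2% and 86.9% from the weakest class to the strongest. The fourth class was thus below the one before it in both lists. Peaks without a partner were shorter, with a median of 240 bases in KO, where shared ones had 420 bases, and 268 bases in WT, where shared ones had 510.5 bases. A false discovery rate under 0.05 was reached by 24.8% of unshared and 78.1% of shared peaks in KO, and by 44.7% of unshared and 86.1% of shared peaks in WT.

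Some fold values recurred many times. In KO the values 3.54, 4.72, 5.90, 7.08, 8.27 and 9.45 were held by 508 of the 5′ UTR peaks (23.5%), and 139 peaks had exactly 7.08. In WT the values 4.08, 5.10, 6.12, 7.14, 8.16 and 9.18 were held by 404 peaks (18.7%). Peaks at these values were shared in 53.5% of cases in KO, compared with 78.7% at other values, and in 57.7% of cases in WT, compared with 73.3%. Class 4 of enrichment spans folds of 4.96 to 8.27 in KO and 5.44 to 9.18 in WT and so includes several of these values. What sets the recurring values was not tested.

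Where a KO and a WT 5′ UTR peak overlapped each other and no further 5′ UTR peak, KO peaks that were shorter outnumbered those that were longer. Of 1109 such pairs, the KO peak was shorter in 564 (50.9%, 47.9 to 53.8), longer in 423 (38.1%) and equal in 122. The median lengths were 420 bases in KO and 450 bases in WT.

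In the table of differential peaks deposited by the authors, which lists only peaks with a p of the difference under 0.05, enrichment at 5′ UTRs was lower in KO in most rows. Of the 600 rows, in 559 genes, 532 had a log2 ratio of KO over WT below 0 (88.7%, 85.9 to 91.1) and 68 above 0. Over all its annotations 69.6% of rows were lower and 30.4% higher. Among 3′ UTR rows 63.2% were lower, and among other exonic rows 85.2% were, so the 5′ UTR share resembled that of other exonic peaks. With a false discovery rate under 0.05, 427 of the 600 rows were lower and 38 higher, while over the whole table such rows made up 57.0% and 22.6% of all 6050 rows. Among the rows at that rate, 91.8% were lower at 5′ UTRs and 71.6% over the whole table. At a log2 ratio of at least 1 in size, 94 of the 600 were lower and 15 higher, with 9.92% and 6.35% of all rows over the whole table. Among the rows of that size, 86.2% were lower at 5′ UTRs and 61.0% over the whole table.

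The median log2 ratio of the 5′ UTR rows in the authors' deposited table was −0.54 (−0.58 to −0.51), and that of the lower rows alone was −0.59, or 0.666 of the WT enrichment. The median was −0.40 over the whole table, −0.34 for 3′ UTR rows and −0.55 for other exonic rows. Set against the table's own median in place of 0, 399 of the 600 rows (66.5%) were lower. The 5′ UTR ratios nearest to 0 were −0.085 and 0.108. The 600 rows are not all separate: they form 585 groups that do not overlap.

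**Figure D3:**
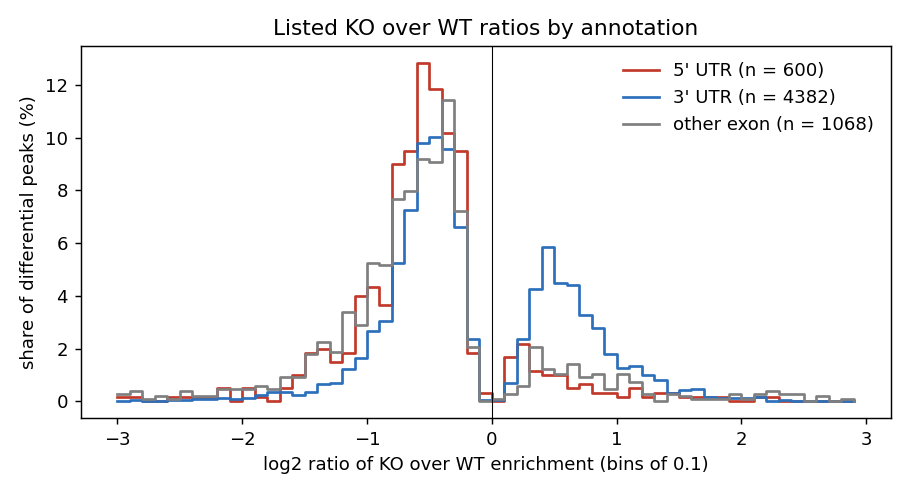
Share of differential peaks (%) by log2 ratio of KO over WT enrichment in the authors' deposited table (bins of 0.1, from −3 to 3), for 600 5′ UTR, 4382 3′ UTR and 1068 other exonic rows. The 5′ UTR rows peak below 0 like the others and lack most of the second peak above 0 that 3′ UTR rows show.

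Lower rows were still mostly present in the KO list. All 532 overlapped a WT peak and 485 (91.2%) also overlapped a KO peak, leaving 47 with none. All 68 higher rows overlapped a KO peak and 60 (88.2%) also a WT peak. The same overlaps were not summarised for rows of other annotations, so whether they are particular to 5′ UTRs is unknown. They may also follow from how the authors chose the rows, which was not tested. Higher rows were shorter (median 269 bases, 211 to 328) than lower rows (569 bases, 480 to 631), lay in 1 block in 57.4% of cases (38.3% for lower rows) and in genes with more input RNA (median 16.1 FPKM, against 6.69 FPKM). The transcript start lay inside 76.5% of higher and 69.0% of lower rows.

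The direction went with the length of the peak, and for short peaks it differed between annotations. Among 5′ UTR rows of at most 269 bases in the authors' deposited table, 70.5% were lower (61.6 to 78.4), among 3′ UTR rows of that length 14.7% (12.9 to 16.6) and among other exonic rows 66.6% (60.8 to 72.0). The share of lower 5′ UTR rows was 86.8% at 270 to 390 bases, 87.2% at 391 to 656 bases and 99.2% at 657 to 1051 bases. All 120 rows longer than that were lower. For 3′ UTR rows the shares in the same classes were 50.3%, 81.5%, 97.6% and 98.3%. From 657 bases upward over 94% of the rows of each annotation were lower.

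**Figure D4:**
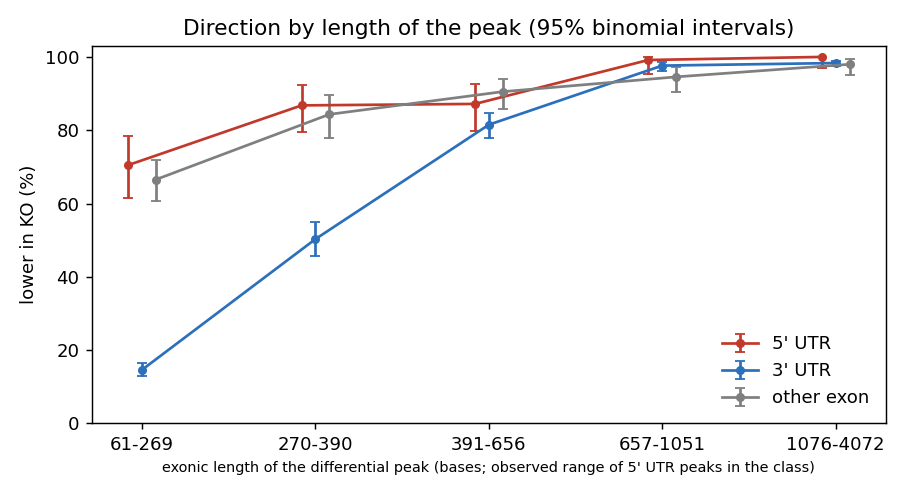
Share of differential peaks lower in KO (%) in 5 classes of exonic length (bases; the labels give the range of the 5′ UTR rows), for 5′ UTR, 3′ UTR and other exonic rows of the authors' deposited table; bars are 95% binomial intervals. In the shortest class 70.5% of 5′ UTR rows but 14.7% of 3′ UTR rows were lower, and in the longest class 100% and 98.3% were.

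The level of the gene moved with the direction as well. Among short 5′ UTR rows 87.0% were lower in genes at or below the table's median of 6.40 FPKM (75.1 to 94.6) and 57.6% in genes above it (44.8 to 69.7). Short 3′ UTR rows were lower in 21.9% and 10.6% of cases in the same classes, so the gap to 3′ UTR rows stood in both. Short other exonic rows were lower in 76.8% and 58.6% of cases, so above the median level the 5′ UTR rows were close to them. Over all lengths the share of lower 5′ UTR rows was 91.5%, 94.0%, 91.9%, 88.7% and 75.7% from the lowest to the highest of 5 classes of level. In the highest class 36.5% of 3′ UTR rows, 71.5% of other exonic rows and 44.3% of all rows were lower. That class had the lowest share for each of them, so the fall was not particular to 5′ UTR rows. The part of transcript level in these shares was not tested beyond these classes.

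Many genes had a differential peak at both ends, which allows a comparison within the transcript. In 205 genes with 5′ and 3′ UTR rows in the authors' deposited table, both medians were lower in KO in 142 genes and both higher in 12. In 37 genes the 5′ UTR was lower and the 3′ UTR higher, and in 14 the reverse. The 5′ UTR ratio was below the 3′ UTR ratio in 131 genes (63.9%, 56.9 to 70.5), with medians of −0.49 for 5′ UTRs and −0.34 for 3′ UTRs and a median difference of −0.15 (−0.24 to −0.05). Against other exonic rows of the same gene, the 5′ UTR ratio was below in 38 of 66 genes (57.6%, 44.8 to 69.7), which includes an even split.

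**Figure D5:**
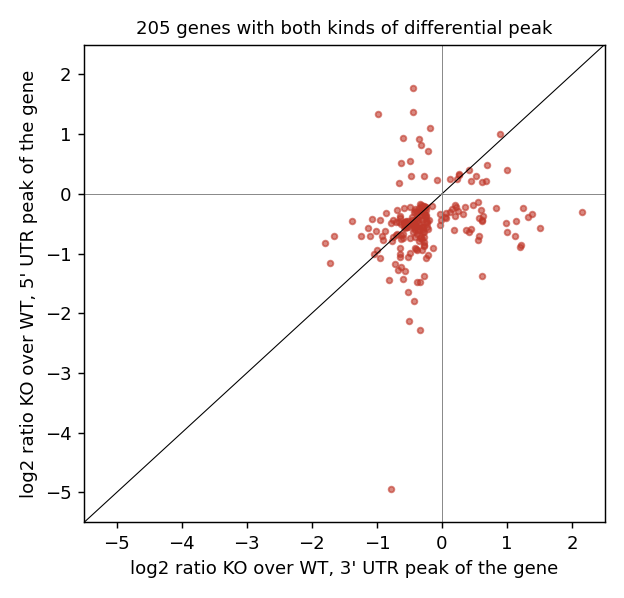
Log2 ratio of KO over WT enrichment for the 5′ UTR row (vertical) and the 3′ UTR row (horizontal) of the same gene, medians where a gene has several, in 205 genes; the diagonal marks equal ratios. Points gather where both are below 0 (142 genes), and 131 lie below the diagonal.

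The lowest and highest ratios are given for named genes other than pseudogenes, with at least 1 FPKM in each input, whose RefSeq extent the row overlaps, and the order holds among those. H3c14, a histone H3 gene, had the lowest, −4.94 (p of the difference 5.89e-07 in the authors' deposited table), listed in 2 nearly identical rows of 418 and 420 bases, and with input levels of 1.65 FPKM in KO and 1.11 FPKM in WT. Histone genes have near-identical copies, so its counts are uncertain. Pradc1 followed at −2.81 and Nr3c1, the glucocorticoid receptor gene, at −2.48 in a row of 210 bases, but a second Nr3c1 row of the same table had −0.21. The false discovery rate was 0.011 for Pradc1 and 0.085 for Nr3c1. The peaks at the Pradc1 row were annotated as 3′ UTR in both lists, and so was the WT peak at the H3c14 row.

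Next among these genes in the authors' deposited table came Tmem229b at −2.28, with a false discovery rate of 0.056, Lysmd1 at −2.16 and Fbxo34, an F-box gene, at −2.13. Fbxo34 had no KO peak at that place, and its WT 5′ UTR peak had a fold of 9.69. Rbm6 was at −1.67, with overlapping 5′ UTR peaks of fold 1.51 in KO and 6.63 in WT. A longer Rbm6 row of 1529 bases had −0.51, with folds of 5.62 in KO and 9.89 in WT. Anapc15, a subunit gene of the anaphase-promoting complex, was at −1.58, Zfp516 at −1.80 with a false discovery rate of 0.055, and Pphln1, a gene of the silencing complex HUSH, at −1.56. Pphln1 had no KO peak at that place either, and a WT 5′ UTR peak of fold 2.55. The WT peaks at the Tmem229b, Lysmd1 and Zfp516 rows were annotated as 3′ UTR, and so was the KO peak at the Zfp516 row. Input levels of all these genes were higher in KO, by differing amounts. Lysmd1 had 2.51 FPKM in KO and 1.73 FPKM in WT, and Anapc15 7.68 FPKM in KO and 5.87 FPKM in WT. Fbxo34 had 4.43 FPKM in KO and 3.46 FPKM in WT. The levels of Pphln1 were closer, with 6.50 FPKM in KO and 6.33 FPKM in WT.

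Among the same set of genes, the highest ratio in the authors' deposited table was that of Brd1, a scaffold gene of a histone acetyltransferase complex, at 2.17 (p of the difference 0.0044), with a KO 5′ UTR peak of fold 15.3 and no WT peak at that place. Its input levels were 7.76 FPKM in KO and 7.44 FPKM in WT. Dexi, at 1.34, likewise had a KO peak of fold 3.45 and no WT peak. Ubn2, a gene of the HIRA histone chaperone complex, was at 1.51 with folds of 14.2 in KO and 1.81 in WT. The RNA-binding protein gene Msi2 was at 1.46 and Kctd9 at 1.44, with false discovery rates of 0.046 and 0.049. The KO peak at the Msi2 row was annotated as 3′ UTR.

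Several of the highest ratios did not reach a false discovery rate of 0.05 in the authors' deposited table. These were Ranbp6, an importin gene (1.77, rate 0.079), the scaffold gene Homer1 (1.70, rate 0.062) and Xpa, a DNA repair gene (1.22, rate 0.066). Homer1 had a further 5′ UTR row at −0.76. Fam43a was at 1.37 and Alg9, a mannosyltransferase gene, at 1.17 with a rate of 0.00074. The KO peak at the Fam43a row was annotated as 3′ UTR. The lists give Alg9 a fold of 3.75 in KO and 19.4 in WT, the other way round from its ratio. The row is 509 bases long, and those peaks are 629 bases in KO and 390 bases in WT.

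Some of these genes had 5′ UTR and 3′ UTR rows of opposite sign. Ranbp6 had 1.77 at its 5′ UTR and −0.45 at its 3′ UTR in the authors' deposited table, Dexi 1.34 and −0.98, and Fam43a 1.37 and −0.45. The false discovery rates of these 3′ UTR rows were 0.060 for Ranbp6, 0.11 for Dexi and 0.079 for Fam43a, all above 0.05. Tulp4, named after its values were seen, had −0.30 at its 5′ UTR and 2.16 at its 3′ UTR.

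Members of 9 pathway lists tied to 5′ UTR methylation or to macrophages were read against all genes with a peak, of which 16.5% in KO and 19.6% in WT had one in the 5′ UTR. Of the members with any peak, 29 of 140 in KO (20.7%) and 37 of 118 in WT (31.4%) had a 5′ UTR peak, 20 of them in both. The authors' deposited table held 14 differential 5′ UTR rows of 13 members, and all 14 were lower in KO, where 88.7% of all 5′ UTR rows were. Of the 14, 6 were below the table's median ratio of −0.40, where 66.5% of all 5′ UTR rows were. The rows of Rbm15, Klf2 and Tfeb had false discovery rates above 0.05.

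The m6A writers and their partners were represented by Rbm15, which guides the writer complex, and by Pcif1, the m6Am writer, both with a 5′ UTR peak in each list. Rbm15 had a fold of 13.8 in KO and 18.8 in WT over 3382 bases in KO and 3293 bases in WT. Its ratio was −0.18 (p of the difference 0.027, false discovery rate 0.071) in the authors' deposited table. Pcif1 had 5.90 in KO and 14.3 in WT and no differential row. Mettl3 had no 5′ UTR peak in either list. Of the readers and erasers with any peak, 3 of 11 in KO and 4 of 9 in WT had a 5′ UTR peak, and none had a differential 5′ UTR row. Ythdc1, a nuclear reader, and Fto, a demethylase, had one in both lists, Ythdf2 and Alkbh5 in WT only and Ythdc2 in KO only.

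Of the heat shock and chaperone genes with any peak, 2 of 15 in KO (13.3%) and 3 of 8 in WT had one in the 5′ UTR, counts too small to set against the shares over all genes. Dnajb1, an HSP40 co-chaperone gene, was the one shared member, with a differential ratio of −0.55 (p of the difference 9.77e-05) in the authors' deposited table. Its peak over the start had a fold of 1.67 in KO and 9.18 in WT, and a further 5′ UTR peak downstream had 1.92 in KO and 1.98 in WT and no differential 5′ UTR row. Hsp90aa1 had a peak in KO only, of fold 1.26, and Hspa1b and Hspd1 in WT only, of folds 8.16 and 5.10. None of these 3 overlapped a peak of the other list. The WT folds 9.18, 8.16 and 5.10 are among the recurring values given above. The cells were not described as heat-shocked.

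Translation initiation genes had a 5′ UTR peak in 4 of 17 members with any peak in KO (23.5%) and 5 of 12 in WT, the 4 KO members among them. Eif1a, which helps the ribosome to scan, had folds of 2.48 in KO and 3.48 in WT and a ratio of −0.43. Eif5b, which joins the ribosomal subunits, had 1.66 in KO and 2.46 in WT and a ratio of −0.27 in the authors' deposited table. Pabpc1 and Eif4g3 had 5′ UTR peaks in both lists and no differential row, and Eif4a1 had one in WT only. In the integrated stress response, Atf5, a transcription factor gene under upstream reading frame control, had folds of 1.95 in KO and 2.60 in WT over the same 298 bases and a ratio of −0.39, while Ddit3 had 1.45 in KO and 1.42 in WT and no differential row.

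Among immediate early genes with any peak, 6 of 20 in KO (30.0%) and 4 of 19 in WT (21.1%) had a 5′ UTR peak, where all genes had 16.5% and 19.6%, and Klf2 (−0.67) and Btg1 (−0.32) had a differential row in the authors' deposited table. The WT peak over the Klf2 row was annotated as 3′ UTR, and the row had a false discovery rate of 0.068. The Toll-like receptor and NF-kB list had 2 of 24 such members in KO (8.33%) and 6 of 22 in WT (27.3%). Of these, Tlr7, a sensor of single-stranded RNA, had a ratio of −0.22 and Tab2 had rows at −0.26 and −0.34, both inside peaks of 3382 bases in either list. The WT-only members were Cd14, Traf6, Nfkb2 and Nfkbie, and of these only the Cd14 peak overlapped a KO peak.

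Macrophage transcription factors had the lowest list median, −1.03, from 3 rows in the authors' deposited table. Spi1, the gene of the myeloid regulator PU.1, was at −0.68 with input levels of 101 FPKM in KO and 90.5 FPKM in WT. Its WT peak had a fold of 3.19, and the KO peak at that place, of fold 2.19, had another exonic annotation. Runx1 was at −1.03, with folds of 5.17 in KO and 8.33 in WT and input levels of 7.17 FPKM in KO and 5.59 FPKM in WT. Tfeb, a regulator of lysosomal genes, was also at −1.03 in a row of 301 bases. The p of the difference was 0.026 and the false discovery rate 0.069. The peaks at that row had folds of 7.08 in KO, over 1680 bases, and 6.35 in WT, over 391 bases, the other way round from the ratio. A Tfeb peak over another start had folds of 2.56 in KO and 2.21 in WT and no differential row. Among cell death and p53 genes, Bcl2l1, which encodes the survival protein BCL-XL, was at −0.34.

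Input levels differed little in the genes with a differential 5′ UTR peak. On the log2(FPKM + 1) scale, which understates the differences of low genes, 402 of 520 genes were higher in KO (77.3%), with a median difference of KO minus WT of 0.10 (0.08 to 0.11). Over all 3679 listed genes averaging 1 FPKM or more, 2540 were higher in KO (69.0%) and the median was 0.07. Genes with lower 5′ UTR rows only had 0.11 (455 genes) and genes with higher rows only 0.03 (63 genes). With 1 input library per genotype these differences have no replicate check, and a level of RNA per cell cannot be told apart from a different mix of cells.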

How the data were processed

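Per the submitters' processing notes the build was mm10, and the tools included edgeR, StringTie, ChIPseeker, HOMER, HISAT2 and fastp, with no role stated for any. The peak caller is not given in the sources used. Peaks were listed by the authors for each genotype from its own IP and input library, with an annotation of each. Per the file headers, each row carries a p-value, a fold (the ratio of IP to input) and a log10 false discovery rate, handled as a score. The deposited table of differential peaks gives a log2 ratio of enrichment, KO over WT, with a p-value and a log10 false discovery rate, another score, all computed by the authors. Input levels were deposited in FPKM, only for genes with a differential peak. All listed peaks have a p of at most 0.05, and all differential rows a p of the difference under 0.05, so peaks that are not listed are unknown. The authors' folds were used to describe and rank peaks within a list.

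Members were the rows annotated 5′ UTR. Deposited starts count from 0, since the exonic blocks of all 21031 KO, 16709 WT and 6050 differential peaks end at the peak end only with 1 added, and are given here from 1. Overlap was computed on exonic blocks, at least 1 base, ignoring strand. Intervals are exact binomial for shares and from order statistics for medians, at 95%. Input differences are log2(FPKM + 1) in KO minus WT, over genes that averaged 1 FPKM or more. No test was run, as each group has 1 library. The planned search for GGAC in the peaks was replaced by the first 50 bases of RefSeq starts (GRCm38.p6) inside 5′ UTR blocks of the same gene symbol, found for 726 KO and 753 WT genes. RefSeq extents overlapped 97.0% of KO and 96.4% of WT members whose gene symbol was found there.

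Members, lists and rules were chosen with earlier results of these data known. Named genes have an assigned symbol that is not predicted and that the peak overlaps: the 10 highest enrichments per list and in both, the longest 3 per list, the 10 lowest and 10 highest ratios in genes at 1 FPKM or more in each input, and members of the 9 lists. Others are said to be chosen after their values were seen. The calculations were tested on simulated data. The work used matplotlib 3.10.9, scipy 1.17.1, pandas 2.3.3 and numpy 2.4.6 under Python 3.11.15.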

Additional observations from a re-analysis of the deposited data

How the results depend on the processing

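Of 77 alternatives to 18 values, 26 stayed within the interval or within 1.5 times, and 51 moved. None turned a direction, but most of the 18 values are shares, counts, lengths or folds, which have no direction to turn. The 5′ UTR share of the lists, 10.3% in KO and 13.0% in WT, was 12.3% and 14.2% (KO, WT) with a fold of at least 4, 13.0% and 15.8% with peaks inside their gene, 16.5% and 19.6% per gene, 8.93% and 11.2% without spans over 10000 bases, and 13.6% in WT with a false discovery rate under 0.05; it was lower in KO in each pair. Genes with a 5′ UTR peak were 984 in KO, 1069 in WT and 550 in both with a fold of at least 4, 513, 651 and 405 with a peak p of at most 1e-10, and 1266 in KO with a false discovery rate under 0.05. Median length was 570 and 658 bases (KO, WT) with a fold of at least 4, 779 and 810.5 with the stricter p, 450 and 480 with the false discovery rate, and 270 and 271 in 1 block. Median enrichment was 7.62 and 8.16 (KO, WT), 5.62 and 6.12 under the first 2 of these, and 4.61 in WT under the rate. The shared part was 74.7% and 78.1% (KO, WT) with a fold of at least 4, so that WT was then the higher, 99.3% and 98.4% with the stricter p, 89.4% and 82.1% with the rate, 49.0% and 50.6% for 50% of both peaks, again higher in WT, 61.9% and 60.5% for 5′ UTR partners only, and 67.6% in WT without long spans. The start was within 100 bases for 83.7% and 85.7% (KO, WT) and inside the genomic span for 75.7% and 79.1%. GGACT stood at 4.85% and 4.88%. Of differential rows 91.8% were lower in KO with a false discovery rate under 0.05, 96.1% with a p under 0.001, where the median ratio was −0.58, and 66.5% against the table's median. The median input difference was 0.11 with a pseudocount of 0.1 FPKM. Removing long spans, GGACT, the genomic span and 1 row per overlapping group were chosen after seeing the data.

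No paired analysis was possible because each genotype has 1 library of each kind, and no replicate can be left out. The planned searches for GGAC over whole peaks and in 100 bases at their middle were not run. Depth is unknown, so the absence of a peak from a list is not the absence of the mark.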
